A study of Homo sapiens with 12 samples.

Results

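The genes described here are the human genes named ZNF with a number, and at most 1 further capital letter, whose deposited gene length was below 20000 bases. There were 221 of them among the 60666 human genes of the count table. ZNF is the symbol given to genes predicted to encode zinc finger proteins, and these are the compact genes of that class. The longer ZNF genes, of 20000 bases or more, numbered 340. Of the 221 short genes, 187 were annotated as protein coding and 34 as pseudogenes. On chromosome 19 lay 106 of them. The length limit is a fixed line through a continuous range. Just inside it were ZNF681 with 19697 bases, which was too low to test, and ZNF442 with 19962 bases, and just outside it were ZNF18 with 20037 bases and ZNF7 with 20046 bases. At 6 h of SPT6 depletion the log2 fold changes were 1.49 for ZNF442, -0.72 for ZNF18 and -1.58 for ZNF7.

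The cells were DLD-1, an established human colorectal adenocarcinoma line, and all of them constitutively expressed OsTIR1, the plant auxin receptor. In SPT6-AID OsTIR1 cells the auxin-inducible degron was on SPT6, which accompanies elongating polymerase and handles histones on the transcribed DNA. In PAF1-AID OsTIR1 cells it was on PAF1, which belongs to the elongation complex PAF1C. Each line was sampled after 0, 2 and 6 h in 500 µM auxin, with 2 poly(A) RNA libraries per group and 12 in all. The series asked how SPT6 and PAF1 act in the release of paused polymerase. The labels do not say whether the libraries of a group came from separate cultures, so p-values measure the spread between these libraries, which may be technical. They do not say whether a line was 1 clone. The samples used here include no untagged cells given auxin, so depletion and any effect of auxin itself cannot be told apart. The tagged proteins were not measured, and a degron acts on protein, so mRNA does not check the depletion.

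Libraries held 31957953 to 115904780 counts, and the short ZNF genes took 0.181% to 0.312% of the human counts. Fly genes took 3.94% to 6.25% of all counts, and this share was highest at 6 h in both lines. Mitochondrial transcripts took 1.63% to 3.92% of human counts, and in SPT6-AID cells were highest in the 6 h libraries. The part of these shares in the results was not tested beyond the fly-based scaling described with the results. Of 10 intestinal epithelial markers, EPCAM (802 to 1032 in counts per 1000000 human counts, CPM), KRT8, KRT18, KRT20, CDX2, CDH17 and CDH1 were all at or above 55.2 CPM in every library. CDX1 was at 0 in every library, and VIL1 and LGALS4 did not exceed 0.250 and 0.581 CPM. Of 8 markers of other cell types, COL1A2 was at 0, CD3E, DCN, PTPRC, PECAM1, CD14 and COL1A1 did not exceed 3.60 CPM, and ACTA2 reached 25.7 CPM.

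Most ZNF proteins bind DNA through C2H2 zinc fingers, short loops in which paired cysteines and paired histidines hold a zinc ion, and tandem fingers read neighbouring bases. Many of them carry a KRAB box, which recruits the co-repressor TRIM28 and with it the histone methyltransferase SETDB1, and KRAB zinc finger proteins are best known for silencing transposable elements. Others carry a SCAN domain, through which these proteins pair with each other. The family grew by repeated tandem duplication, and in human many of its genes stand in clusters on chromosome 19.

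The bases before the start are printed first for 5 members whose mRNA levels are described below. Among members past the threshold of the test, ZNF443 and ZNF526 had the largest falls at 2 h of SPT6 depletion. ZNF823 lies in the same run of members on the short arm of chromosome 19 as ZNF443, ZNF597 fell and returned, and ZNF672 fell late. Each stretch comes from the RefSeq promoter windows on GRCh38.p14, is read 5′ to 3′ on the gene's own strand, and stops before the first base of the GENCODE gene. Capitals mark the CCAAT box, which reads ATTGG where it lies on the opposite strand. They also mark the GC box, which reads GGGCGG, or CCGCCC where it lies on the opposite strand. The stretches lie at chr19:12441113-12441271, minus strand (ZNF443), chr19:11739010-11739196, minus strand (ZNF823), chr19:42220062-42220270, plus strand (ZNF526), chr16:3443554-3443754, minus strand (ZNF597), and chr1:248837974-248838209, plus strand (ZNF672).
ZNF443: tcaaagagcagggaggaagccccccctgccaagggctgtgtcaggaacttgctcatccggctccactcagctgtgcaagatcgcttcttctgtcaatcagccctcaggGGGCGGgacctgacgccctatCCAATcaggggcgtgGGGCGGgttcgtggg
ZNF823: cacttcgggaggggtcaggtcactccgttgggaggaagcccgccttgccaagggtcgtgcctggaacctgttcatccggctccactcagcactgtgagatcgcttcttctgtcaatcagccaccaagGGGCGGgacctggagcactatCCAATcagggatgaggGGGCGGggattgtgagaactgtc
ZNF526: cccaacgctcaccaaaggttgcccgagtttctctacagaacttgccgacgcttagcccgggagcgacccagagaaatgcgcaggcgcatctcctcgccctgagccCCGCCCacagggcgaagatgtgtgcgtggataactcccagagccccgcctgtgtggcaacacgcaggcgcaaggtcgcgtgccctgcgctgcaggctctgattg
ZNF597: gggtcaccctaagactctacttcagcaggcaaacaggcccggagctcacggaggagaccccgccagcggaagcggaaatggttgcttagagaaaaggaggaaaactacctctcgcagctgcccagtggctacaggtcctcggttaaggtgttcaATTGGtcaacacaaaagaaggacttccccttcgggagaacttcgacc
ZNF672: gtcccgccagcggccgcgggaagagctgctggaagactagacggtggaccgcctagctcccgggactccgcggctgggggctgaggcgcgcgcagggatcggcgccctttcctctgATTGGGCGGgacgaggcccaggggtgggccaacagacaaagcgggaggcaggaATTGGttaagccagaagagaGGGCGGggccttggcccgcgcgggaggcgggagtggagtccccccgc

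The ZNF443 and ZNF823 stretches both hold 1 CCAAT between a pair of GC boxes. Aligned over their whole 300-base windows, the ZNF823 window matched that of ZNF443 at 227 bases (75.7%), and the ZNF563 window of the same cluster matched it at 236 bases (78.7%). In the 250 bases before the start, 157 members had a RefSeq window, and 1 window per gene was read. CCAAT or ATTGG was in 48.4% of them, against 33.0% of the windows of all 27305 genes. GGGCGG or CCGCCC was in 62.4%, against 42.3% of all genes. TATAAA or TTTATA was in 2 of the 157 windows (1.27%), against 11.1% of all genes. In ZNF672 one ATTGG overlaps a GC box. Of the 9 members with a window that fell at 2 h of SPT6 depletion, 7 held CCAAT or ATTGG and 5 the GC box (55.6%), against 48.4% and 66.9% of the 124 tested members with a window. Among the 54 with a window that were lower at 6 h the shares were 51.9% and 70.4%. These are counts of letters and not of bound sites.

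Of the 221 short ZNF genes, 151 had enough reads to be tested with edgeR's quasi-likelihood test, which was fitted over 20791 human genes. The other 70 comprised 41 coding genes and 29 pseudogenes, of which 29 genes had no count in any library, and no count of any of the 70 was above 19. A gene is called lower or higher where its Benjamini-Hochberg adjusted p over all 20791 genes was below 0.05. Levels of a gene are in CPM after TMM scaling. Levels between genes are compared in TPM, a transcript share of 1000000 that divides counts by the deposited transcript length.

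At 0 h the short ZNF genes were mostly low, with a median of 9.42 TPM among the 151 tested. The highest was ZNF703 (231 TPM on average over the 4 libraries at 0 h), which encodes a transcriptional co-repressor amplified in breast cancer, and its libraries ran from 122 to 353 TPM. It was followed by ZNF593 (168 TPM), which acts in maturation of the large ribosomal subunit, ZNF768 (112 TPM), ZNF598 (110 TPM), the ubiquitin ligase that marks collided ribosomes, ZNF622 (93.4 TPM), another large-subunit factor, and ZNF511 (89.3 TPM). The 0 h libraries of ZNF703 and ZNF593 overlapped each other, and from ZNF768 to ZNF511 each gene's libraries overlapped those of the next, so the order among these neighbours is not resolved. The lowest library of ZNF593 (133 TPM) was above the highest of ZNF768 (125 TPM).

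After 2 h of SPT6 depletion, 11 of the 151 tested members were lower (7.28%), against 0.462% of all genes tested. Higher calls made up 0.0866% of all genes. No member was higher by edgeR's test, where 2 were higher at an unadjusted p under 0.05, and DESeq2 and limma-voom also called 0. The median log2 fold change of the members was -0.57, against 0.012 for all genes. Of the longer ZNF genes 12 of 220 tested were lower (5.45%) and 0 higher, with a median of -0.42. In 97 of the 151, both libraries at 2 h lay below both libraries at 0 h, which held for 17.9% of all genes tested. The members share 4 libraries in this comparison, so they are not replicates of it. The 11 calls depended on the libraries that set the spread: 0 remained without either library of SPT6-AID at 0 h or 2 h, and 5 or 6 were counted without any 1 PAF1-AID library, while the median stayed between -0.57 and -0.51. At an unadjusted p under 0.05, 72 members were lower.

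ZNF443, a KRAB protein with 16 fingers by pattern (chromosome 19, 12429707 to 12441112, GRCh38), had the largest fall at 2 h. In SPT6-AID cells it was at 6.91 and 8.50 CPM in the libraries of replicates 1 and 2 at 0 h, at 2.21 and 2.11 CPM at 2 h, and at 2.63 and 2.65 CPM at 6 h. Every library at 2 or 6 h was thus below both at 0 h. The log2 fold change at 2 h was -1.84 ± 0.23 (standard error, adjusted p = 0.00955, edgeR). Of its 50-base windows, 39.7% also occur in other genes, mostly its neighbour ZNF799, whose protein is 89.1% identical, so the authors' counting could split reads between them. ZNF799 was at 7.41 and 8.73 CPM at 0 h and at 2.78 and 2.56 CPM at 2 h. Its fitted change of -1.59 ± 0.30 had an adjusted p of 0.0554.

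ZNF526, with 13 fingers and no matched KRAB box, was at 24.0 and 22.8 CPM at 0 h in SPT6-AID cells, at 8.83 and 6.79 CPM at 2 h, and at 7.43 and 5.17 CPM at 6 h. It fell by 1.59 ± 0.22 on the log2 scale at 2 h (adjusted p = 0.0149, edgeR) and was still low at 6 h (-1.89 ± 0.23, adjusted p = 3.57e-04). In PAF1-AID cells the same gene was at 20.5 and 25.3 CPM at 0 h, 13.04 and 16.3 CPM at 2 h and 17.7 and 19.1 CPM at 6 h, and neither time passed. The drop in SPT6-AID cells was therefore kept, whereas the PAF1-AID libraries at 6 h lay below both 0 h libraries by a smaller margin.

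ZNF597, on chromosome 16 (3432422 to 3443553), gave another course. In SPT6-AID cells it was at 15.2 and 14.5 CPM at 0 h, at 6.70 and 6.11 CPM at 2 h, and back at 15.7 and 14.6 CPM at 6 h. The 2 h libraries stood apart from the others, and the 0 h and 6 h libraries overlapped. It fell at 2 h (-1.21 ± 0.16, adjusted p = 0.0117, edgeR) and rose from 2 h to 6 h (1.24 ± 0.16, adjusted p = 0.00146). ZNF12, a KRAB protein, showed the same course, from 51.8 and 47.0 CPM at 0 h to 24.0 and 21.1 CPM at 2 h and 51.8 and 41.2 CPM at 6 h. ZNF57, from 11.1 and 13.01 CPM through 6.11 and 6.25 CPM to 14.2 and 14.1 CPM, was the third of the 11 that rose again.

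The other members called lower at 2 h stayed low. ZNF281, a transcription factor studied in stem cells and in epithelial-mesenchymal transition, went from 67.7 and 67.3 CPM to 28.9 and 30.8 CPM and then 48.4 and 36.6 CPM. ZNF684 fell by 1.27 ± 0.21 and ZNF552 by 1.26 ± 0.22 on the log2 scale at 2 h, and ZNF696 by 1.17 ± 0.20. In all, 8 of the 11 were also lower at 6 h than at 0 h, where 66 of all 151 members were. Both comparisons use the same 0 h libraries, and this overlap was not counted over all genes. The remaining calls at 2 h, named like ZNF57 after their values were seen, were ZNF557 (-1.08) and ZNF35 (-0.82).

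**Figure D1:**
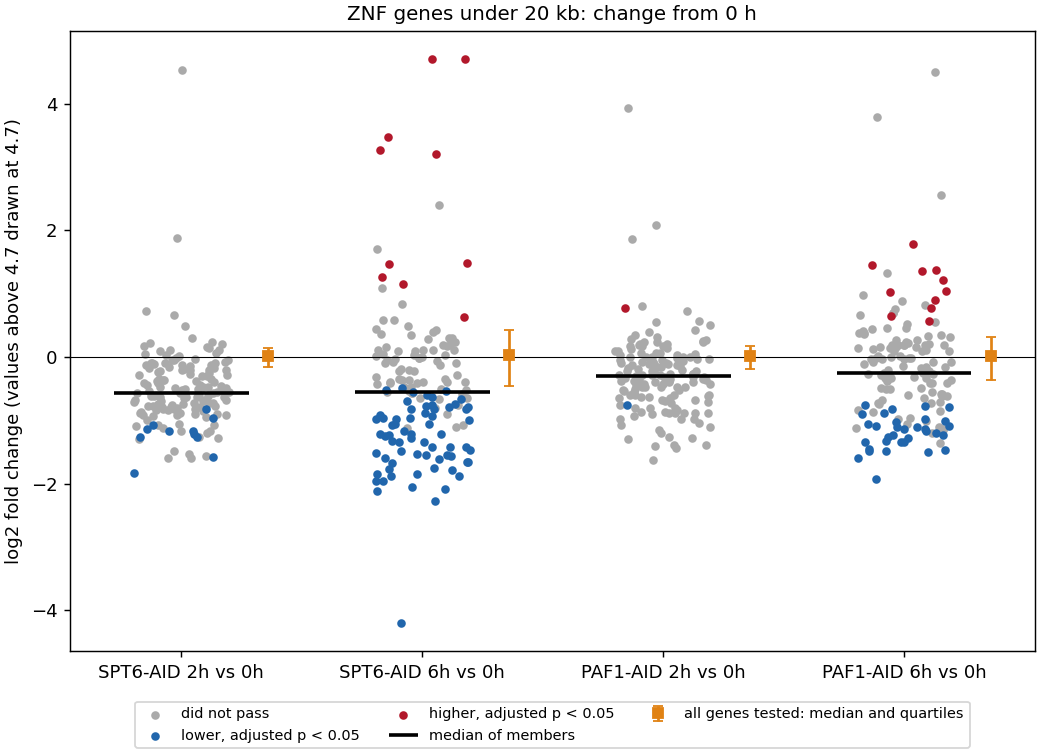
Each point is 1 of the 151 tested short ZNF genes, with its log2 fold change from 0 h on the vertical axis (edgeR) and the comparison on the horizontal axis. Blue is lower and red higher at an adjusted p below 0.05. Black lines are member medians and orange squares with bars give the median and quartiles of all 20791 genes. The member medians of -0.57, -0.55, -0.30 and -0.26 all lie below those of all genes.

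At 6 h of SPT6 depletion, 66 of the 151 members were lower (43.7%), against 16.4% of all genes tested, and 10 were higher (6.62%), against 8.76% of all genes. The member median was -0.55, against 0.039 for all genes. Among all 10897 tested genes shorter than 20000 bases, 9.98% were lower and the median was 0.19. Whether gene length has a part in the members' changes was not tested. Of the longer ZNF genes, 98 of 220 tested were lower (44.5%), with a median of -0.66. Without the second SPT6-AID library at 6 h, 33 members were lower, and without the first at 0 h, 39 were lower and 5 higher.

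ZNF776, a KRAB gene on chromosome 19, was at 19.1 and 16.4 CPM in SPT6-AID cells at 0 h, at 6.66 and 5.59 CPM at 2 h and at 5.09 and 2.17 CPM at 6 h. Its fall at 6 h was the largest among called members whose log2 CPM averaged 0 or more (-2.27 ± 0.33, adjusted p = 8.65e-04, edgeR). ZNF324 (-2.11), ZNF165 (-2.09), ZNF212 (-2.05), ZNF232 (-1.97) and ZNF594 (-1.96) followed. Exons of ZNF776 overlap those of AC003006.1 on its strand, and 34.2% of ZNF324's 50-base windows occur elsewhere, mostly in ZNF446.

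ZNF672, with 13 fingers, fell late: it was at 31.1 and 33.8 CPM at 0 h, at 22.8 and 26.9 CPM at 2 h and at 9.32 and 8.31 CPM at 6 h. The change at 2 h did not pass (-0.38 ± 0.15, adjusted p = 0.532, edgeR), and the change from 2 h to 6 h was -1.50 ± 0.16 (adjusted p = 8.81e-04). ZNF770 had the same order of levels, from 87.6 and 96.9 CPM through 58.7 and 73.7 CPM to 30.6 and 30.6 CPM. ZNF3, a KRAB protein whose exons overlap those of ZSCAN21 on the opposite strand, went from 58.1 and 62.9 CPM through 41.4 and 46.8 CPM to 22.4 and 21.3 CPM. In each of these 3 genes the libraries of the 3 times did not overlap.

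Of the 10 members that rose at 6 h, 6 were below 1 CPM in both SPT6-AID libraries at 0 h. The filter on low counts asks for reads in only some libraries, so a gene near 0 at 0 h could be tested through later libraries alone. The share of all tested members below 1 CPM was not counted, so the low start is not read as a result. ZNF512B, which encodes a 4-finger protein linked to TGF-beta signalling, was at 0.536 and 0.486 CPM at 0 h, 0.814 and 0.804 CPM at 2 h and 4.999 and 6.43 CPM at 6 h. Its rise of 3.47 ± 0.43 (adjusted p = 4.25e-04, edgeR) came after 2 h, and exons of UCKL1-AS1 overlap it on the opposite strand. ZNF503, a co-repressor without a finger matching the C2H2 pattern, rose from 58.4 and 44.0 CPM at 0 h and 57.0 and 46.6 CPM at 2 h to 153 and 131 CPM at 6 h. ZNF75A (1.26 ± 0.28) and ZNF296 (1.16 ± 0.24) also rose, and so did ZNF574 (0.63 ± 0.12, adjusted p = 0.00327). ZNF574 was at 35.3 and 36.3 CPM at 0 h, at 24.7 and 24.8 CPM at 2 h and at 57.7 and 53.1 CPM at 6 h. Its change at 2 h missed the threshold (-0.53 ± 0.12, adjusted p = 0.0912).

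The other 5 higher calls at 6 h, ZNF442, ZNF843, ZNF836, ZNF304 and ZNF844, fell outside the rule for naming and are given here after their values were seen. ZNF844 had 0 and 0 counts at 0 h in SPT6-AID cells and 14 and 5 counts at 6 h. ZNF304 had 0 and 2 counts at 0 h and 30 and 50 at 6 h, and ZNF836 had 3 and 1 counts at 0 h and 18 and 10 at 6 h. No fold is given for these, since their 0 h counts are at or under 3 counts. ZNF843 was at 0.321 and 0.280 CPM at 0 h and 2.54 and 3.07 CPM at 6 h, and it rose by 3.21 ± 0.32 on the log2 scale (adjusted p = 1.84e-04, edgeR).

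**Figure D2:**
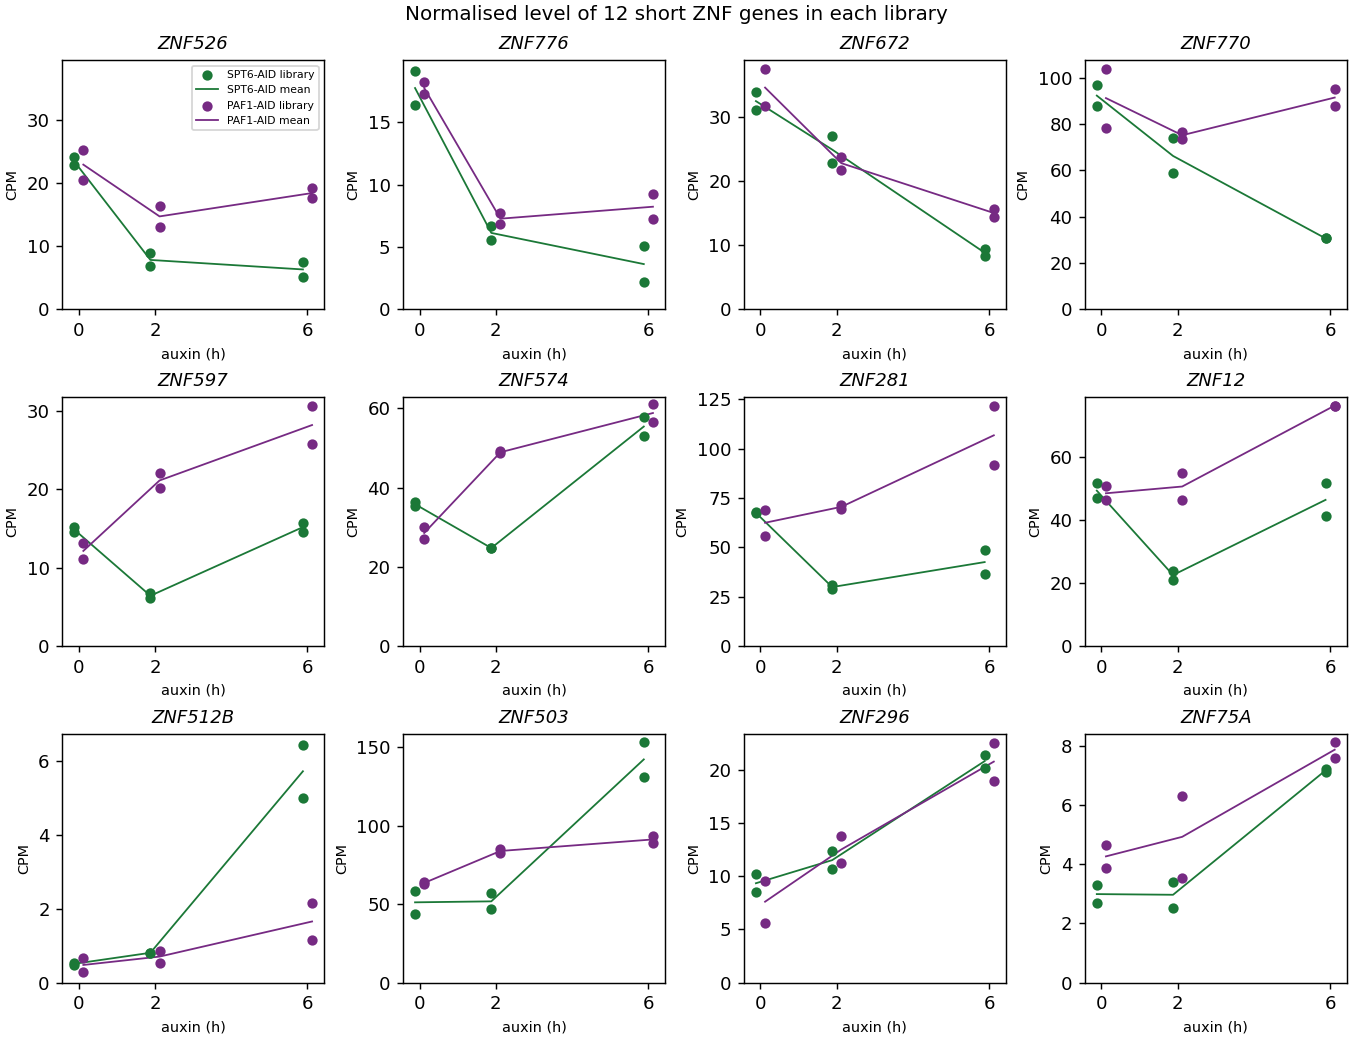
Each panel shows 1 gene, with hours of auxin on the horizontal axis and its level in CPM on the vertical axis. Points are libraries (green SPT6-AID, purple PAF1-AID, 2 per group) and lines join group means. In green, ZNF526 and ZNF776 fall by 2 h, ZNF672 and ZNF770 fall mainly by 6 h, ZNF597 and ZNF12 dip at 2 h, and ZNF512B and ZNF503 rise at 6 h.

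Between 2 h and 6 h of SPT6 depletion, 24 members fell (15.9%), against 10.4% of all genes, and 20 rose (13.2%), against 5.32% of all genes. The member median was 0.0039. All 24 that fell were also lower at 6 h than at 0 h, where 66 of all 151 members were. Such overlaps reuse libraries, and they were not counted over all genes. Of the 20 that rose, 15 had a fitted change below 0 at 2 h, 3 of them past the threshold. Among all 151 members 132 were below 0 at 2 h, so this does not set the 20 apart. At 6 h 9 of the 20 were higher than at 0 h. The lists thus held both returns after a dip, such as ZNF597 and ZNF12, and late rises, such as ZNF512B and ZNF503. Among called members whose log2 CPM averaged 0 or more, the largest falls were those of ZNF672 (-1.50), ZNF311 (-1.49), ZNF239 (-1.30) and ZNF165 (-1.27), and the largest rises those of ZNF512B (2.81), ZNF503 (1.46), ZNF441 (1.42) and ZNF75A (1.28). Below that level, 1 called fall (ZNF887P) and 5 called rises (ZNF836, ZNF304, ZNF563, ZNF843 and ZNF442) had larger fitted changes than ZNF672 and ZNF503, and they are named after their values were seen. Scaled to fly totals, 31 fell and 13 rose, against 15.4% and 2.78% of all genes, and the median was -0.29, against -0.28 for all genes. Without the first SPT6-AID library at 2 h 15 fell. Without the second at 2 h 10 fell and 9 rose, without the first at 6 h 12 rose, and without the second at 6 h 10 fell and 13 rose. Among the longer ZNF genes 42 of 220 fell and 14 rose, with a median of -0.26. Comparisons with 0 h and between 2 h and 6 h share libraries, so their values are set side by side and not correlated.

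Under PAF1 depletion the counts of short ZNF genes called were smaller. At 2 h 1 of 151 was lower, against 0.0818% of all genes, and 1 was higher, against 0.0673% of all genes, with a median of -0.30 against 0.010 for all genes. At an unadjusted p under 0.05, 48 members were lower and 4 higher. Of the longer ZNF genes 1 of 220 was lower and 0 higher by adjusted p, with a median of -0.28. ZNF3 was the lower one, at 59.0 and 61.2 CPM in PAF1-AID replicates 3 and 4 at 0 h, 35.98 and 34.8 CPM at 2 h and 23.7 and 24.2 CPM at 6 h. It fell by 0.77 ± 0.12 on the log2 scale at 2 h (adjusted p = 0.0453, edgeR), and its levels at the 3 times did not overlap. ZNF574 was the higher one, from 27.1 and 29.96 CPM to 48.6 and 49.2 CPM at 2 h (0.78 ± 0.12, adjusted p = 0.0427) and 61.1 and 56.6 CPM at 6 h. Both calls were lost without any 1 PAF1-AID library and without any 1 SPT6-AID library at 0 h or 2 h, whose spread enters the same fit, and kept without either at 6 h.

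At 6 h of PAF1 depletion 33 members were lower (21.9%), against 6.7% of all genes, and 11 were higher (7.28%), against 4.2% of all genes. The median was -0.26, against 0.0185 for all genes. Of the longer ZNF genes 42 of 220 were lower (19.1%) and 8 higher (3.64%), with a median of -0.21. These counts rest on single libraries: 5 were lower and 3 higher without the PAF1-AID 6 h library of replicate 3, 18 and 7 without that of replicate 4, 13 lower without the 0 h library of replicate 3, and 15 lower and 5 higher without that of replicate 4. ZNF311 had the largest fall, from 13.97 and 8.21 CPM at 0 h through 6.31 and 5.75 CPM at 2 h to 2.64 and 3.21 CPM at 6 h (-1.92 ± 0.30, adjusted p = 0.00387, edgeR). Its libraries at 2 h and 6 h all lay below those at 0 h. Among those whose log2 CPM averaged 0 or more, ZNF284 (-1.60), ZNF396 (-1.50), ZNF414 (-1.49), ZNF497 (-1.49), ZNF324B (-1.46), ZNF692 (-1.34) and ZNF485 (-1.34) followed. ZNF284 and ZNF396 are low genes, at 2.92 and 1.93 CPM and at 1.64 and 1.19 CPM at 0 h. Of ZNF284's 50-base windows, 43.9% occur in another gene.

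Among the rises at 6 h of PAF1 depletion, ZNF512B went from 0.662 and 0.298 CPM to 2.14 and 1.17 CPM (1.78 ± 0.43, adjusted p = 0.0259, edgeR). ZNF296 rose by 1.45 ± 0.25, ZNF785 by 1.37 ± 0.28, ZNF597 by 1.22 ± 0.16 and ZNF574 by 1.04 ± 0.12. ZNF597 went from 11.2 and 13.1 CPM at 0 h to 20.1 and 22.1 CPM at 2 h and 30.6 and 25.8 CPM at 6 h, with no overlap between the times. ZNF622 and ZNF598, named above for their levels, also rose (0.90 ± 0.21 and 0.57 ± 0.12), and ZNF593 did not pass (0.018 ± 0.22, adjusted p = 0.974, edgeR). Between 2 h and 6 h of PAF1 depletion 0 members fell by edgeR's test, against 0.587% of all genes, where 13 were lower at an unadjusted p under 0.05 and DESeq2 called 7 and limma-voom 0. The 1 member that rose, against 0.289% of all genes, was ZNF843 (2.24), named after its value was seen.

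Of the 66 members lower at 6 h of SPT6 depletion, 27 (40.9%) were also lower at 6 h of PAF1 depletion, and these were 81.8% of the 33 lower there. Over all genes tested the shares were 30.4% of 3409 and 74.5% of 1394. ZNF296, ZNF512B, ZNF574 and ZNF843 were higher in both lines, 40.0% of the 10 and 36.4% of the 11, where over all genes the shares were 26.2% of 1821 and 54.8% of 873. By the smaller of the changes in the lines, ZNF311, ZNF512B, ZNF321P and ZNF324B led. ZNF281 passed in opposite directions. It was lower at 6 h in SPT6-AID cells (-0.66 ± 0.18, adjusted p = 0.0193, edgeR) and higher in PAF1-AID cells (0.77 ± 0.18, adjusted p = 0.0210), where it went from 69.1 and 55.7 CPM at 0 h to 122 and 91.9 CPM at 6 h.

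**Figure D3:**
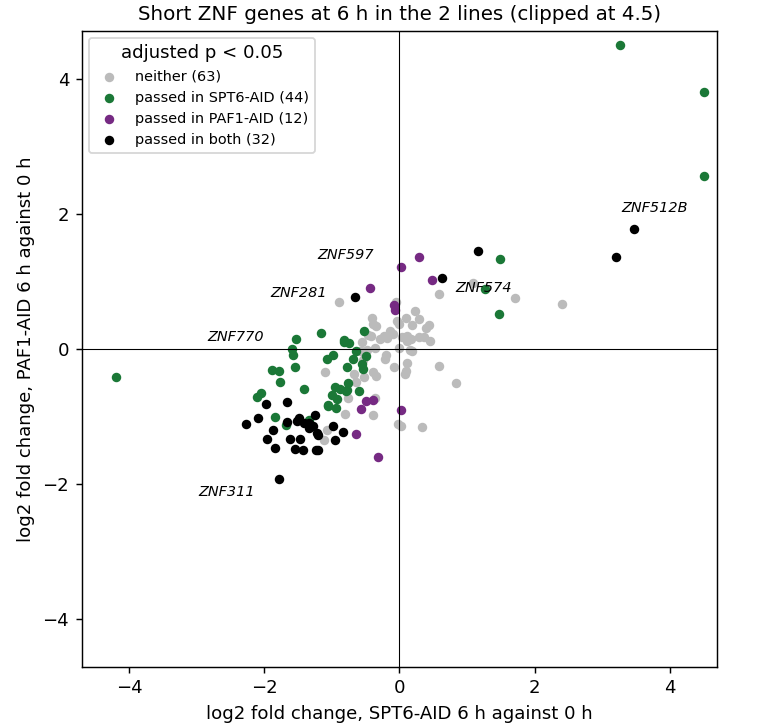
Each point is 1 of the 151 tested short ZNF genes, with its log2 fold change at 6 h in SPT6-AID cells on the horizontal axis and in PAF1-AID cells on the vertical axis (edgeR, values clipped at 4.5). Black points passed in both lines, green and purple points in 1 line, and grey points in neither. Most black points lie at the lower left, and ZNF281 stands alone among them at the upper left.

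Whether a response differed between the lines was tested as the SPT6-AID change minus the PAF1-AID change. At 2 h it was lower for 2 members, against 0.0192% of all genes: ZNF597 (-2.01 ± 0.23, adjusted p = 0.0181, edgeR), which fell in SPT6-AID cells while its PAF1-AID libraries were higher, and ZNF574 (-1.31 ± 0.17, adjusted p = 0.0443). Higher differences made up 0.0144% of all genes. No member was among them by edgeR, DESeq2 or limma-voom, and 1 was at an unadjusted p under 0.05. Neither remained without any 1 library at 0 h or 2 h of either line or with fly totals, and 1 remained without either PAF1-AID library at 6 h. At 6 h the difference was lower for 13 members (8.61%), against 3.12% of all genes, and higher for 2, against 0.62% of all genes. The median difference was -0.27. Among the longer ZNF genes the 6 h difference was lower for 14 of 220 (6.36%) and higher for 0, with a median of -0.38.

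Among the 13 lower differences at 6 h, that of ZNF260 was the largest (-1.68 ± 0.32, adjusted p = 0.0230, edgeR). It went from 37.0 and 34.8 CPM to 14.8 and 9.88 CPM in SPT6-AID cells and from 32.4 and 40.1 CPM to 35.8 and 44.3 CPM in PAF1-AID cells. ZNF770 differed by -1.59 ± 0.22, ZNF526 by -1.57 ± 0.31 and ZNF561 by -1.49 ± 0.23. In PAF1-AID cells ZNF770 was at 104 and 78.4 CPM at 0 h and 87.9 and 94.9 CPM at 6 h, so those libraries overlapped. The higher differences were ZNF503 (0.95 ± 0.22, adjusted p = 0.0439), which was at 62.9 and 64.1 CPM at 0 h and 89.2 and 93.3 CPM at 6 h in PAF1-AID cells, and ZNF843 (1.85 ± 0.44). The 13 lower differences became 2 without either SPT6-AID library at 0 h or the second at 6 h, 1 and 3 without the PAF1-AID 0 h libraries of replicates 3 and 4, and 4 and 0 without those at 6 h. No higher difference remained without any 1 library.

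The members were also grouped by the domains read from their proteins. KRAB boxes without a SCAN domain were found in 102 members (72 tested), SCAN domains in 10 (10 tested) and neither, but at least 1 finger, in 71 (61 tested). The other 4 coding members (3 tested) had no finger of the pattern, and 34 (5 tested) gave no protein. The tested proteins had a median of 9 fingers and at most 30. At 6 h of SPT6 depletion 30 of 72 KRAB members fell and 5 rose (median -0.51). Among the 61 members without either domain 25 fell and 4 rose (median -0.52). Over all genes tested 16.4% were lower and 8.76% higher, and over all 151 members 43.7% and 6.62%. Of the 10 SCAN members 8 fell (median -1.05). They were led by ZNF165 (-2.09 ± 0.27), a testis antigen expressed in tumours, ZNF232 (-1.97 ± 0.20) and ZNF202 (-1.76 ± 0.22), a repressor of lipid metabolism genes. The SCAN members named here were chosen after their values were seen. ZNF174 (-0.58 ± 0.21, adjusted p = 0.0734) and ZNF213 (-0.39 ± 0.24, adjusted p = 0.275) did not pass.

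From 2 h to 6 h of SPT6 depletion the groups had different medians, as a description without a test. Of the KRAB members 13 rose and 5 fell (median 0.26). Among those without either domain 6 rose and 14 fell (median -0.082), and of the SCAN members 4 fell (median -0.62). Over all genes tested 5.32% rose and 10.4% fell, and over all 151 members 13.2% and 15.9%. At 2 h the KRAB median was -0.71, the SCAN median -0.56 and that of the others -0.37. Across 146 members with a protein, the number of fingers had a Spearman rho of -0.295 with the change at 2 h of SPT6 depletion and of -0.009 with the change at 6 h. These points share libraries, and finger number was not tested apart from domain class or place on chromosome 19. Most KRAB members tested, 49 of 72, lay on chromosome 19, where 9 rose and 2 fell from 2 h to 6 h of SPT6 depletion (median 0.29). Of the 23 KRAB members on other chromosomes 4 rose and 3 fell (median -0.051). Members without either domain had medians of -0.082 on chromosome 19 and -0.075 elsewhere. Domain class and place were not tested apart.

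**Figure D4:**
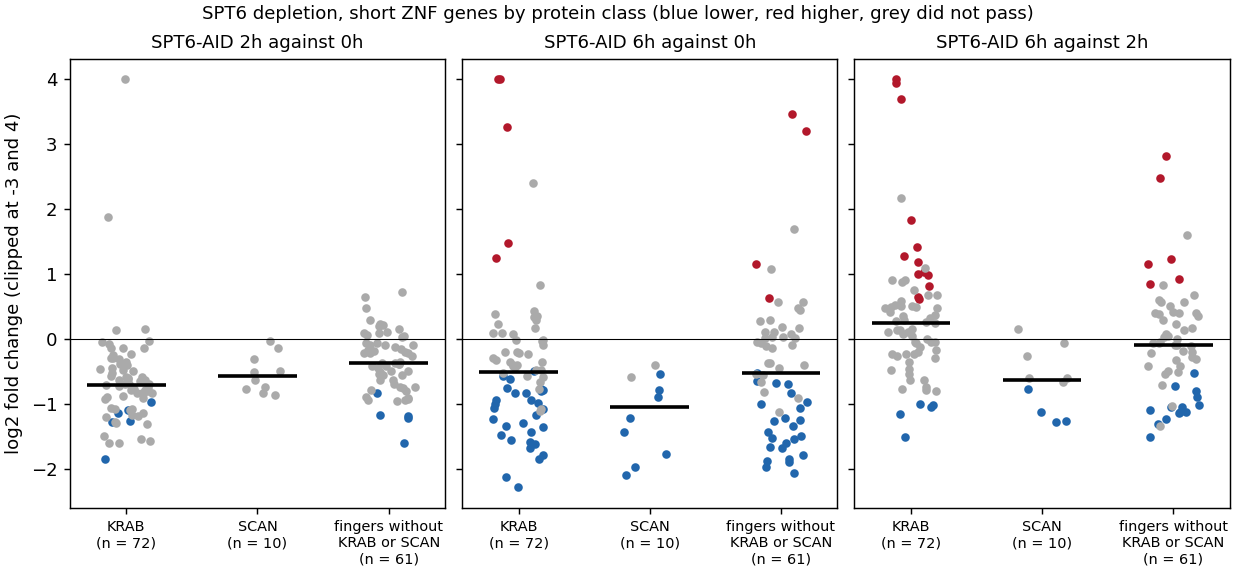
Points are tested short ZNF genes, split by domains read from the protein on the horizontal axis, with the log2 fold change on the vertical axis (edgeR, clipped at -3 and 4), and black lines are medians. Panels show SPT6-AID cells at 2 h and 6 h against 0 h and at 6 h against 2 h. In the last panel the KRAB median is 0.26 and the SCAN median -0.62. For KRAB members outside chromosome 19, which are not drawn apart, the median is -0.051.

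On chromosome 19, runs of at least 5 members with gaps under 500000 bases were read one by one. The run from ZNF887P to ZNF443 (chromosome 19, 11648364 to 12441112, GRCh38, 13 members, 8 tested) had a median of -1.12 at 2 h of SPT6 depletion and of -0.028 at 6 h. From 2 h to 6 h its median was 1.22, and ZNF441, ZNF563, ZNF442 and ZNF799 rose while ZNF887P fell. Over all genes tested 5.32% rose and 10.4% fell. Among the 8 tested, ZNF844, ZNF563, ZNF442 and ZNF887P were at or below 1.22 CPM in every library. Their changes rest on few counts and enter the run's medians. In SPT6-AID cells ZNF563 was at 0.064 and 0.0093 CPM at 2 h and at 0.41 and 0.38 CPM at 6 h. This run and its members were chosen after their values were seen. ZNF441 was at 4.82 and 5.62 CPM at 0 h, at 2.76 and 2.25 CPM at 2 h and at 6.17 and 7.26 CPM at 6 h. ZNF799 was at 4.91 and 5.87 CPM at 6 h, above its 2 h libraries and below those at 0 h. ZNF823, whose stretch is printed above beside that of ZNF443, was at 14.8 and 20.2 CPM, then 7.11 and 8.38 CPM, then 12.1 and 14.2 CPM, and passed at neither time. ZNF443 itself stayed low. In PAF1-AID cells the run's medians were -0.19 at 2 h and 0.18 at 6 h.

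**Figure D5:**
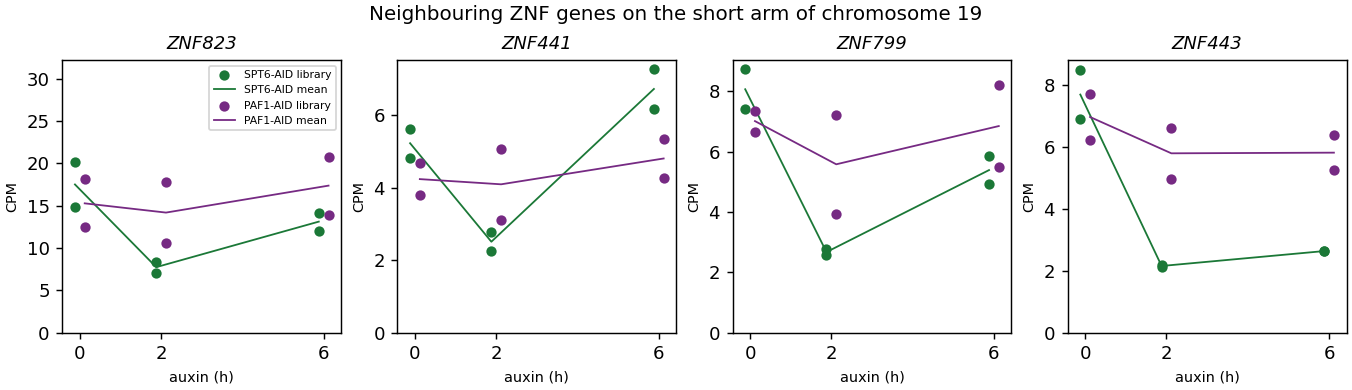
Levels in CPM (vertical axis) of 4 members of the run from ZNF887P to ZNF443 against hours of auxin (horizontal axis), with libraries as points and group means as lines, green for SPT6-AID and purple for PAF1-AID. In SPT6-AID cells all 4 are low at 2 h, and at 6 h ZNF823, ZNF441 and ZNF799 stand above their 2 h libraries while ZNF443 is at 2.63 and 2.65 CPM.

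The largest run, from ZNF460 to ZNF446 near the end of the long arm (57280051 to 58481230), had 29 members, 19 of them tested. Its medians were -0.83 at 2 h and -0.65 at 6 h of SPT6 depletion. At 6 h 9 of the 19 fell and 1 rose. This is read beside 43.7% lower and 6.62% higher among all tested members, and 16.4% and 8.76% among all genes. The run is thus not set apart from the other members by its calls. All 73 tested members on chromosome 19 had a median of -0.64 at 2 h and -0.49 at 6 h, and the 78 on other chromosomes of -0.42 and -0.61.

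The partners of KRAB repression were read beside the members, as a list of 33 tested genes. Their medians at 2 h were -0.016 in SPT6-AID cells and -0.0060 in PAF1-AID cells. At 6 h of SPT6 depletion 12 fell and 2 rose, against 16.4% and 8.76% of all genes, and the median was -0.33, against 0.039. SETDB1 (-1.89 ± 0.16), CHAF1A, a chromatin assembly factor subunit (-1.66 ± 0.17), and the histone methyltransferases SUV39H1 (-1.63 ± 0.18) and EHMT1 (-1.40 ± 0.22) changed most. At 6 h of PAF1 depletion 4 fell and 3 rose, against 6.7% and 4.2% of all genes, and the median was -0.031, against 0.0185. SETDB1 (-1.38), SMARCAD1 (-1.12), SUV39H2 (-0.88) and TASOR (-0.65) fell. The largest of the 3 rises was that of TRIM28, which KRAB boxes bind (0.64). TRIM28's change at 6 h of SPT6 depletion was 0.22 ± 0.16 (adjusted p = 0.376, edgeR).

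Because fly material was present in every library, the fit was also scaled to fly totals. All genes then had medians of -0.12 and -0.39 at 2 h and 6 h of SPT6 depletion and of -0.22 and -0.37 at 2 h and 6 h of PAF1 depletion, and the members -0.69, -0.97, -0.53 and -0.65. The members were therefore below all genes under both scalings. Members lower then numbered 3, 82, 0 and 55 in these comparisons, against 0.111%, 28.1%, 0.00481% and 13.8% of all genes. Those higher at 6 h numbered 7 and 3, against 4.61% and 1.42% of all genes. All named rises kept their sign, ZNF574 at 6 h of SPT6 depletion with 0.20. Of the 51 values of named members, however, 19 no longer passed the threshold with fly totals and 32 did. Among the 151 tested, 50 overlapped an exon of a gene on the opposite strand and 37 one on the same strand, and 10 shared over 30% of their 50-base windows with other genes. The 76 with none of these had medians of -0.62 and -0.65 at 2 h and 6 h of SPT6 depletion, and of -0.36 and -0.30 under PAF1 depletion. With TMM scaling 37 of the 76 were lower and 4 higher at 6 h of SPT6 depletion. Among all tested members 43.7% were lower and 6.62% higher there, and among all genes 16.4% and 8.76%.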

How the data were processed

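Poly(A) RNA-seq of 12 libraries was used. The authors deposited whole-number read counts per gene, not normalized, in 1 table that also gives lengths of genes and transcripts. Per the submitters' processing notes, the tools were STAR 2.7.5, cutadapt 1.14 and featureCounts 2.0.0, and the builds were BDGP6 for fly and GRCh38 for human. The kit was directional, per the labels' protocols. The strand setting of the counting and the annotation release are not given in the sources used here, so overlapping, antisense and near-identical genes are uncertain.

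Human genes passing filterByExpr were fitted with edgeR 4.0.16 (R 4.3.3), with TMM scaling, 6 group means and 6 residual degrees of freedom. Adjusted p-values are Benjamini-Hochberg over all genes tested, and a standard error is the size of the log2 fold change over the root of its F statistic. The step was also run on counts simulated independently for each library, whereas same-numbered libraries of these data deviated together. The outcome of that run is not used for any result. Libraries of a group were not copies: between them the chi-square was 37.7 to 69.9 times its degrees of freedom. Positions came from GENCODE 29 (GRCh38), whose span equals the deposited gene length for 113 of the 221 members. Proteins were translated from GENCODE transcripts. A finger is C, 2 to 4 residues, C, 12 residues, H, 3 to 5 residues, H. KRAB and SCAN were found by pattern, and the KRAB pattern was widened after proteins that it missed were seen. RefSeq proteins had been planned. TPM was computed from counts over the deposited transcript length. Promoter windows were RefSeq's, matched by symbol.

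The members and lists were chosen with earlier results of these data known. Named were, from each comparison with 0 h, up to 8 falls and 5 rises past the threshold whose log2 CPM averaged 0 or more, with no overlap with the 0 h libraries. Up to 4 in each direction were named from 6 h against 2 h and from differences, and also the highest levels, the edges of the length limit and members called in both lines. Where other members are given singly outside a group or count, the text says that their values were known. Alternatives were DESeq2 1.42.0 (size factors, Wald test), total counts, fly totals, no filter, a mean of at least 1 CPM, limma-voom (limma 3.58.1), each line alone, a block for the replicate number, a prior count of 2, and each library left out. A lone library left in a group was taken to vary as the remaining groups do.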

Additional observations from a re-analysis of the deposited data

Results flagged for a closer look

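For 15 members the response to depletion differed between the lines at 6 h by the test of the difference itself (edgeR, adjusted p below 0.05), and for 2 at 2 h. Each value is the log2 fold change in SPT6-AID cells minus that in PAF1-AID cells. At 2 h it was -2.01 for ZNF597 and -1.31 for ZNF574. At 6 h the difference was -1.68 for ZNF260, -1.59 for ZNF770, -1.57 for ZNF526, -1.49 for ZNF561, -1.45 for ZNF639, -1.44 for ZNF281, -1.41 for ZNF212, -1.39 for ZNF684, -1.33 for ZNF622, -1.27 for ZNF202, -1.19 for ZNF597, -1.15 for ZNF232 and -0.96 for ZNF768. It was 0.95 for ZNF503 and 1.85 for ZNF843. Of these, ZNF597 passed at both times. ZNF639 was at 32.2 and 29.9 CPM at 0 h and 10.4 and 7.65 CPM at 6 h in SPT6-AID cells, and at 34.3 and 36.5 CPM and then 25.9 and 30.7 CPM in PAF1-AID cells. ZNF622 was at 47.8 and 52.8 CPM and then 34.2 and 40.3 CPM in SPT6-AID cells, and at 35.9 and 53.9 CPM and then 81.9 and 85.5 CPM in PAF1-AID cells. With 2 libraries a group, no separate test for outlying libraries was made, but the fit was repeated with each library left out. None of these calls held in every such fit, as described with the differences above. The median difference then ran from -0.21 to -0.083 at 2 h and from -0.40 to -0.15 at 6 h.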

How the results depend on the processing

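The member medians against 0 h and of the differences stayed below 0 under every alternative run. The median from 2 h to 6 h of SPT6 depletion, near 0, changed sign with fly totals, with the line alone (-0.0021) and with a library left out, and that of PAF1 depletion with fly totals. From 2 h to 6 h of SPT6 depletion rises outnumbered falls under some settings, such as 27 to 25 by DESeq2's Wald test and 19 to 17 at a mean of at least 1 CPM. Scaled to fly totals, lower calls at 2 h of SPT6 depletion were 3, its 6 h median -0.97, and the median from 2 h to 6 h -0.29 with 13 higher. For PAF1 depletion they were 0 lower, 0 higher and a median of -0.53 at 2 h, 55 lower, 3 higher and -0.65 at 6 h, and 0 higher and -0.061 from 2 h to 6 h, and the differences between the lines gave 0 lower at both times and 0 higher at 6 h. With total counts, 7 were lower at 2 h of SPT6 depletion, 0 higher at 2 h of PAF1 depletion, the PAF1 6 h median was -0.37, and differences were lower for 1 (2 h) and 2 (6 h) and higher for 0. DESeq2's size factors gave 0 lower at 2 h of PAF1 depletion. Without a filter on low counts, 28 were lower at 2 h of SPT6 depletion and 11 at 2 h of PAF1 depletion, the PAF1 6 h median was -0.17, 5 fell and 2 rose from 2 h to 6 h of PAF1 depletion, and differences were lower for 5 at 2 h and higher for 1 at 6 h. A mean of at least 1 CPM gave 1 lower and 0 higher from 2 h to 6 h of PAF1 depletion and 1 higher difference at 6 h. DESeq2's Wald test called 46 lower at 2 h of SPT6 depletion, 15 lower and 2 higher at 2 h of PAF1 depletion, 7 lower and 6 higher from 2 h to 6 h there, and 8 and 22 lower differences at 2 h and 6 h. Limma-voom called 24 lower at 2 h of SPT6 depletion, 1 lower difference at 2 h and 1 higher at 6 h. Each line fitted alone, which has fewer libraries, gave 0 lower at 2 h of SPT6 depletion (64 at an unadjusted p under 0.05), 15 falls from 2 h to 6 h, and under PAF1 depletion 0 lower and 0 higher at 2 h and 0 higher from 2 h to 6 h.

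Same-numbered libraries deviated together (correlation of replicate differences between times 0.657 to 0.87), but with 2 numbers per line they are not treated as pairs. With the replicate block, 77 were lower at 2 h of SPT6 depletion, 18 higher at 6 h, and 43 fell and 43 rose from 2 h to 6 h. The block raised the calls over all 20791 genes as well, to 1347 lower at 2 h and 4927 higher at 6 h. From 2 h to 6 h, 4917 of all genes fell and 3549 rose. Under PAF1 depletion the block gave 49 lower and 6 higher at 2 h, 65 and 29 at 6 h, and 16 and 27 from 2 h to 6 h. Over all genes these counts were 972 and 480, 4131 and 3827, and 2429 and 1743. Differences were lower for 19 members at 2 h, and lower for 46 and higher for 7 at 6 h. Over all genes they were lower for 221 at 2 h, and lower for 3196 and higher for 1317 at 6 h.

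With 1 library left out, lower and higher calls ran from 0 to 14 and 0 to 0 at 2 h of SPT6 depletion (median -0.57 to -0.51), from 33 to 63 and 5 to 10 at 6 h (-0.74 to -0.49), and from 10 to 25 and 9 to 21 from 2 h to 6 h (-0.17 to 0.15). Under PAF1 depletion they ran from 0 to 1 and 0 to 1 at 2 h (-0.37 to -0.27), from 5 to 37 and 3 to 12 at 6 h (-0.33 to -0.12), and from 0 to 0 and 0 to 1 from 2 h to 6 h (0.024 to 0.16). Differences ran from 0 to 2 lower and 0 to 0 higher at 2 h (-0.21 to -0.083), and from 0 to 14 and 0 to 0 at 6 h (-0.40 to -0.15). Of 51 values of named members, 16 kept their call under every setting and none changed sign. With a library left out 34 lost it at least once, and 23 under another setting. The causes were not tested. Members with few counts are limited by depth.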
